A study of Mus musculus with 4 samples.

Results

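Immunoglobulin transcripts were examined through 15 of the 22690 probe sets of a mouse expression array. Of the 15, 11 are annotated to Ighm alone, the constant region of the IgM heavy chain. Another 1 is annotated to Igkv8-30 alone, a kappa light chain variable segment. The last 3 are annotated to 5 kappa genes at once (Igkv6-23, Igkv4-53, Igkv8-30, Igkj1 and Igkc). Signal of these last 3 is shared by those genes and cannot be assigned to 1 of them. The 15 were chosen because immunoglobulin signal was low in tumors with p62-EGFP, so their difference between the groups is given as a description, without a test. The array holds 40 further probe sets of immunoglobulin heavy and light chain genes that did not enter this choice. Some of the 40 are annotated to Ighm or Igkv6-23 together with other genes, such as 1427758_x_at (Ighv14-2, Ighg3 and Ighm).

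The samples were subcutaneous tumors in nude mice (NCR Nu/Nu), grown from iBMK cells, an immortalized epithelial line of baby mouse kidney. All cells lacked Atg5, a gene required for autophagy, and all expressed Bcl-2, an inhibitor of cell death. In 2 tumors the cells expressed p62, the autophagy adaptor encoded by Sqstm1, fused to the fluorescent protein EGFP, and in the other 2 tumors they expressed EGFP alone. Both groups came from isogenic lines, and the promoter of the transgenes, the sex and age of the mice and the number of clones are not given in the sources used here. Nude mice lack a working thymus and are short of mature T cells, but keep B cells, NK cells and myeloid cells.

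An antibody is built from 2 kinds of chain, heavy and light. B cells assemble the variable part of each from V, D and J segments by DNA rearrangement, and a kappa or a lambda constant region completes the light chain. IgM is the first class a B cell makes, and plasma cells secrete it as a polymer held together by the J chain. B lineage cells are the normal source of these transcripts, and kidney epithelium is not. In RNA of whole tumors, fewer cells of a type and less RNA per cell cannot be told apart.

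EGFP tumor 2 stood apart from the other 3 tumors. Its log2 signals correlated with theirs at 0.893 to 0.902 across the 13576 probe sets bright enough to be tested, against 0.944 to 0.980 among the other 3 (probe sets are not independent replicates). Transcripts of leukocytes were high in it: Ptprc, the pan-leukocyte marker CD45, read 95.9 and 114.7 in p62-EGFP tumors 1 and 2 and 60.8 and 1264 in EGFP tumors 1 and 2. Differences are therefore also given against each EGFP tumor alone. Sqstm1 read 1432.7 and 1687.8 in the p62-EGFP tumors and 975.8 and 1156.1 in the EGFP tumors, so the groups did not overlap in the direction of the labels, but the difference did not pass the test (log2 difference 0.54, SE 0.14, limma adjusted p = 0.235, 2 tumors per group). Values are MAS5 signals on a linear scale. On each array 32.9% to 34.2% of probe sets read under 20, and no detection calls were used here, so values under 20 are not ordered.

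The 3 shared kappa light chain probe sets had high signal in both EGFP tumors and low signal in both p62-EGFP tumors. Probe set 1452417_x_at read 4.0 and 11.1 in p62-EGFP tumors 1 and 2 and 513.9 and 586.7 in EGFP tumors 1 and 2. Probe set 1427660_x_at read 11.7 and 20.1 in the p62-EGFP tumors and 548.0 and 634.2 in the EGFP tumors. Probe set 1427455_x_at read 14.8 and 8.4 in the p62-EGFP tumors and 444.2 and 427.9 in the EGFP tumors. In both p62-EGFP tumors these 3 probe sets stood between the 13.9th and the 33.1st percentile of the array, and in both EGFP tumors they stood between the 88.7th and the 93.2nd, with no overlap between groups. As means ± SD (n = 2 each), the signals were 7.55 ± 5.02 in p62-EGFP and 550 ± 51.5 in EGFP tumors for the first, 15.9 ± 5.94 and 591 ± 61.0 for the second, and 11.6 ± 4.53 and 436 ± 11.5 for the third. On the log2(signal + 16) scale the differences were -4.60, -4.26 and -4.04, the 3 lowest of all 22626 non-control probe sets. With a pseudocount of 1 in place of 16 they were -6.14, -5.17 and -5.16, and Igkv8-30 and 2 Ighm probe sets then lay below the last 2. With 64 they were -3.1, -3.03 and -2.73, again the 3 lowest.

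The level of these kappa transcripts was nearly the same in the 2 EGFP tumors, although Ptprc was 20.8-fold higher in EGFP tumor 2 than in EGFP tumor 1. The ratio of EGFP tumor 2 to EGFP tumor 1 was 1.14 for 1452417_x_at, 1.16 for 1427660_x_at and 0.963 for 1427455_x_at. The difference of the p62-EGFP tumors was accordingly as large against EGFP tumor 1 alone (log2 differences -4.51, -4.16 and -4.07) as against EGFP tumor 2 alone (-4.69, -4.36 and -4.02). The single-gene probe set of Igkv8-30, 1452463_x_at, read 0.7 and 4.2 in the p62-EGFP tumors and 244.2 and 97.4 in the EGFP tumors. It separated the groups as the shared kappa probe sets did, with a log2 difference of -3.23, but was higher in EGFP tumor 1 than in EGFP tumor 2. That size was -5.71 with a pseudocount of 1 and -1.75 with 64. Igkv8-30 is also among the genes annotated to the 3 shared probe sets, and its own carries the suffix _x_at, which Affymetrix gives to sets that hold probes shared with other sequences.

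The 11 Ighm probe sets did not behave as 1 transcript, and fell into 3 patterns. The first, of 4 probe sets, was high in both EGFP tumors. Probe set 1427870_x_at read 51.5 and 44.4 in the p62-EGFP tumors and 335.0 and 235.8 in the EGFP tumors. Probe set 1425247_a_at read 6.0 and 11.0 in the p62-EGFP tumors and 176.1 and 108.0 in the EGFP tumors. These 2 did not overlap between groups, and in both the highest value was that of EGFP tumor 1. Probe set 1427756_x_at read 0.7 and 1.2 in the p62-EGFP tumors and 126.7 and 73.8 in the EGFP tumors. Probe set 1425324_x_at read 0.5 and 1.0 in the p62-EGFP tumors and 129.3 and 57.9 in the EGFP tumors. All 4 were thus higher in EGFP tumor 1 than in EGFP tumor 2, by 0.48 to 0.98 on the log2 scale, the opposite order to Ptprc. Their log2 differences between groups were -2.22 for 1427870_x_at, -2.66 for 1425247_a_at, -2.74 for 1427756_x_at and -2.63 for 1425324_x_at. These sizes depend on the pseudocount, most for the last 2, whose p62-EGFP signals were 1.2 or less. Those 2 were both -5.66 with a pseudocount of 1, and -1.32 and -1.25 with 64. For 1425247_a_at the values were -3.92 and -1.49, and for 1427870_x_at -2.53 and -1.63. Probe set 1427870_x_at kept a signal of 48.0 ± 5.02 in p62-EGFP tumors (285 ± 70.1 in EGFP tumors, n = 2 each), near the middle of the array at the 44.8th and 48.1st percentiles. It was the only one of the 15 to exceed 25 in a p62-EGFP tumor.

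The second pattern, of 2 Ighm probe sets, was high in EGFP tumor 2 alone. Probe set 1427329_a_at read 17.9 and 14.6 in the p62-EGFP tumors and 16.7 and 159.2 in the EGFP tumors. Probe set 1427351_s_at read 9.5 and 3.4 in the p62-EGFP tumors and 1.9 and 178.2 in the EGFP tumors. For both, EGFP tumor 1 lay within or below the p62-EGFP tumors, and the groups overlapped. Against EGFP tumor 1 alone the log2 differences were -0.02 and 0.31, and against EGFP tumor 2 alone -2.44 and -3.13, so their group differences of -1.23 and -1.41 rested on EGFP tumor 2. The sources used here do not say which part of the heavy chain each Ighm probe set reads.

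The third pattern, of 5 Ighm probe sets, was low in all 4 tumors, with no signal above 20.8. Probe sets 1425385_a_at, 1426196_at, 1427869_at, 1451949_at and 1452535_at had log2 differences between -0.20 and 0.27, in both directions. The 15 probe sets therefore do not all share a loss of signal in p62-EGFP tumors: 8 were high in both EGFP tumors, 2 in EGFP tumor 2 alone and 5 in none. Of the 15, 9 had both p62-EGFP values under both EGFP values and 2 had them above, where 18.2% of all non-control probe sets lay below and 26.5% above, and 7 of the 15 passed the filter on low values. As the members were chosen on this contrast, nothing is read from these counts.

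**Figure D1:**
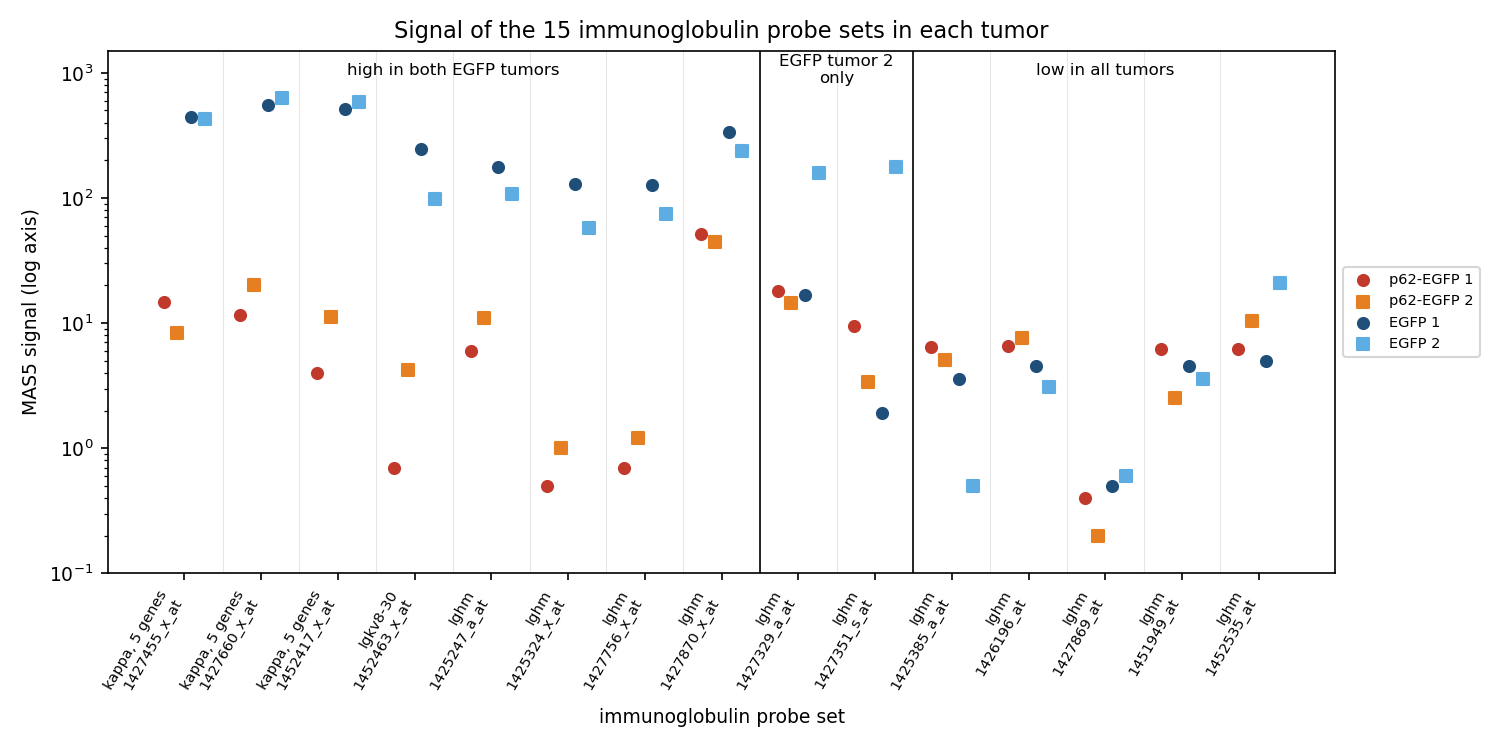
Signal (log axis) of the 15 immunoglobulin probe sets, with 1 point for each tumor and no averaging. The 8 probe sets on the left read 0.5 to 51.5 in the p62-EGFP tumors and 57.9 to 634.2 in the EGFP tumors, the next 2 are high in EGFP tumor 2 alone, and the 5 on the right stay at or under 20.8.

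The members differ in how specific their probes are. The plain suffix _at is given to sets whose probes are meant to match 1 transcript, and _a_at and _s_at to sets of probes shared by several transcripts. A signal of 25 in at least 1 EGFP tumor was reached by 7 of 7 members with the suffix _x_at, by 3 of 4 with _a_at or _s_at and by 0 of 4 with _at. Members had been chosen on these signals, so nothing is read from this split, and of 9 other immunoglobulin probe sets with the suffix _x_at 0 reached 25. Cross-reading between related immunoglobulin sequences was not tested.

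The other 40 immunoglobulin probe sets gave little signal in any tumor. They comprise 12 of heavy chain genes, 25 of kappa and 3 of lambda genes, and 39 of them stayed at or under 22.3 in all 4 tumors. The exception was 1427503_at of Ighg3, the IgG3 heavy chain constant region, at 7.8 and 7.5 in the p62-EGFP tumors and 10.4 and 35.4 in the EGFP tumors. Igha, the IgA heavy chain, was read by 3 probe sets, of which 1429381_x_at gave 15.1 and 18.2 in the p62-EGFP tumors and 14.9 and 22.3 in the EGFP tumors, so the groups overlapped. None of the 40 passed the filter on low values. The groups were apart with p62-EGFP lower for 8 of the 40 and with p62-EGFP higher for 5, near the 18.2% and under the 26.5% of all non-control probe sets. Without the filter, 0 of the 40 passed limma after Benjamini-Hochberg adjustment (0.0265% of all probe sets did) and 2 had an unadjusted p below 0.05, where 11.8% of all probe sets did. One was 1430523_s_at of the lambda variable segment Iglv1, at 0.9 and 1.2 in the p62-EGFP tumors and 9.9 and 8.6 in the EGFP tumors (limma adjusted p = 0.287). The other was 1427855_at of Igkv19-93, at 15.7 and 18.7 in the p62-EGFP tumors and 8.0 and 9.0 in the EGFP tumors (limma adjusted p = 0.358). All these signals were under 20. The median log2 difference of the 40 was -0.02, beside 0.02 over all tested probe sets.

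**Figure D2:**
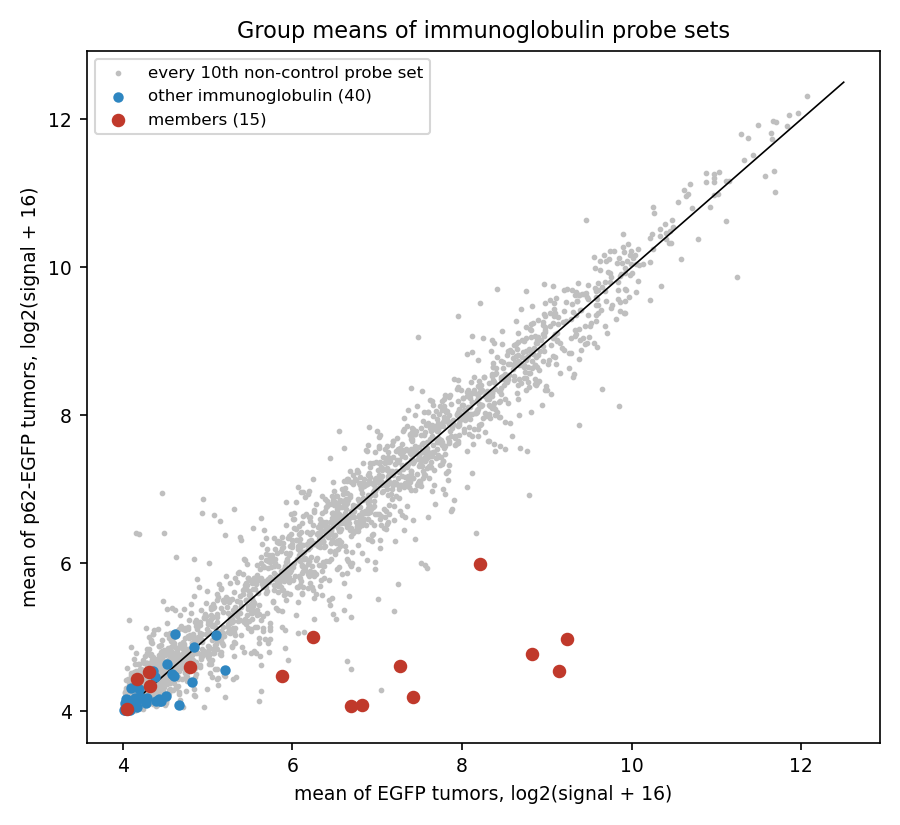
Mean log2(signal + 16) of the 2 p62-EGFP tumors against that of the 2 EGFP tumors, for the 15 members, the other 40 immunoglobulin probe sets and every 10th non-control probe set; the line marks equal means. The 10 brighter members lie below the line, by 1.23 to 4.60, while the other 5 members and the 40 lie at the dim end close to it.

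The J chain gene Jchain, which plasma cells and other cells that secrete polymeric antibody express, differed in the same direction as the kappa transcripts at a lower signal. It read 10.3 and 8.1 in the p62-EGFP tumors and 21.2 and 54.8 in the EGFP tumors, a log2 difference of -1.03 without overlap. Jchain was too dim to enter the test, and without the filter it did not pass (limma adjusted p = 0.390, unadjusted p = 0.0343). The antigen receptor partners of immunoglobulin on the B cell surface were close to the bottom of the array in EGFP tumor 1. Cd79a, the Ig-alpha chain of the receptor, read 4.3 and 4.2 in the p62-EGFP tumors and 5.5 and 13.2 in the EGFP tumors. Cd79b, the Ig-beta chain, read 2.0 and 3.1 in the p62-EGFP tumors and 1.3 and 32.4 in the EGFP tumors. Ms4a1, the B cell surface protein CD20, read 10.7 and 10.0 in the p62-EGFP tumors and 3.3 and 18.3 in the EGFP tumors. These 3 B cell markers thus read 5.5 or less in EGFP tumor 1 and 10.7 or less in the p62-EGFP tumors. All these values are under 20 and are not ordered, so nothing is read from them. Which cells gave the kappa signal was not tested.

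Of 44 genes listed for B lineage cells, 37 were measured by a probe set of 1 gene and 10 of these passed the filter. None of the 10 passed limma after adjustment (0.0884% of all probe sets tested did), and 2 had an unadjusted p below 0.05, where 14.5% of all probe sets tested did. The median log2 difference of the 10 was -0.12 (0.02 over all tested). The groups were apart with p62-EGFP lower for 2 of the 10 and with p62-EGFP higher for 4, beside 22.2% and 26.7% of all tested. Without EGFP tumor 1, 6 of the 10 passed, where 20.9% of all probe sets tested did, 5 of them lower and 1 higher in p62-EGFP tumors. That fit sets EGFP tumor 2 alone against the p62-EGFP pair and takes all spread from the pair, so it describes that 1 tumor. Without EGFP tumor 2, in the same kind of fit, 0 passed, where 9.53% of all probe sets tested did.

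Among receptor and surface genes, Cd22, an inhibitory co-receptor of B cells, read 26.2 and 18.5 in the p62-EGFP tumors and 30.4 and 75.1 in the EGFP tumors (limma adjusted p = 0.399). Cd72, another inhibitory co-receptor, read 37.0 and 59.8 in the p62-EGFP tumors and 22.2 and 362.6 in the EGFP tumors (limma adjusted p = 0.698), and the adaptor gene Blnk 69.9 and 89.3 against 82.6 and 188.8 (limma adjusted p = 0.509). Each was highest in EGFP tumor 2, as were 15 of the 21 B lineage genes that reached 20 in some tumor. Some of the 21 reached 20 in EGFP tumor 2 alone and so could only be highest there. The share of all probe sets highest in that tumor is not given here, so nothing is read from this count. Only 1 of the 6 measured B cell transcription factor genes was tested, Bach2, which holds back plasma cell differentiation. It read 97.5 and 142.3 in the p62-EGFP tumors and 102.8 and 88.1 in the EGFP tumors, which overlapped (limma adjusted p = 0.601).

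Genes of plasma cells and antibody secretion had no common direction. Creld2, an endoplasmic reticulum protein induced by secretory stress, read 208.8 and 193.2 in the p62-EGFP tumors and 291.8 and 350.9 in the EGFP tumors (log2 difference -0.63, limma adjusted p = 0.242). Sdc1, the plasma cell surface marker syndecan-1, which epithelial cells also express, read 139.8 and 150.3 in the p62-EGFP tumors and 98.1 and 100.2 in the EGFP tumors (log2 difference 0.48, limma adjusted p = 0.294). The groups of both genes were apart, Creld2 lower and Sdc1 higher in p62-EGFP tumors, without passing the test. Fkbp11, a prolyl isomerase of secretory cells, and Derl3, which takes part in degradation of misfolded secretory proteins, were also higher in both p62-EGFP tumors without passing (log2 differences 0.52 and 0.42, limma adjusted p = 0.354 and 0.396). Epithelial cells can express these 4 genes, so they do not mark plasma cells alone. The 6 measured genes of the surrogate light chain and of V(D)J recombination, which precursor B cells use, were all too dim to be tested. Rag1 and Rag2, which encode the recombinase, read 1.4 or less in every tumor.

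The pan-leukocyte, macrophage, NK, T and B cell surface lists summed far higher in EGFP tumor 2 than in any other tumor. The shared kappa probe sets were instead nearly equal in the 2 EGFP tumors. Macrophage genes were not low in the p62-EGFP tumors, where they summed to more than in EGFP tumor 1. The 7 pan-leukocyte genes summed to 519.9 and 639.3 in the p62-EGFP tumors and 364.6 and 5611 in the EGFP tumors, and 10 macrophage genes to 2844.4 and 2866.6 against 1454.2 and 7581.1. The 7 NK cell genes summed to 69.6 and 70.5 in the p62-EGFP tumors and 68.5 and 3003.2 in the EGFP tumors. The 12 T cell genes summed to 184.5 and 204.9 in the p62-EGFP tumors and 197.0 and 1402 in the EGFP tumors. The 13 B cell receptor and surface genes summed to 200.6 and 234.1 against 198.9 and 852.2. Much of that last sum came from Cd72 (362.6) and Blnk (188.8). In EGFP tumor 2, 6 of the 13 genes read under 20, Cd79a (13.2) and Ms4a1 (18.3) among them. Whether this tumor held more B cells was not tested. For none of these 5 lists was EGFP tumor 1 above both p62-EGFP tumors. It was for the 8 members high in both EGFP tumors, but these had been grouped by their signal in EGFP tumor 1. The 2 Ighm probe sets high in EGFP tumor 2 alone were like these lists here. For neither of them did EGFP tumor 1 lie above both p62-EGFP tumors. Members had been chosen for low signal in p62-EGFP tumors and grouped on EGFP tumor 1, so nothing is read from their contrast with the lists. Of the 7 pan-leukocyte, 9 macrophage, 5 NK cell, 2 T cell and 3 B cell surface genes tested, 0 passed limma after adjustment (0.0884% of all tested did) and 0 had an unadjusted p below 0.05 (14.5% of all tested). The smallest limma adjusted p was 0.399, for Cd22 of the B cell list, and 0.433 outside it, for Klrk1, an activating NK cell receptor, at 17.4 and 10.0 in the p62-EGFP tumors and 21.2 and 523.9 in the EGFP tumors.

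**Figure D3:**
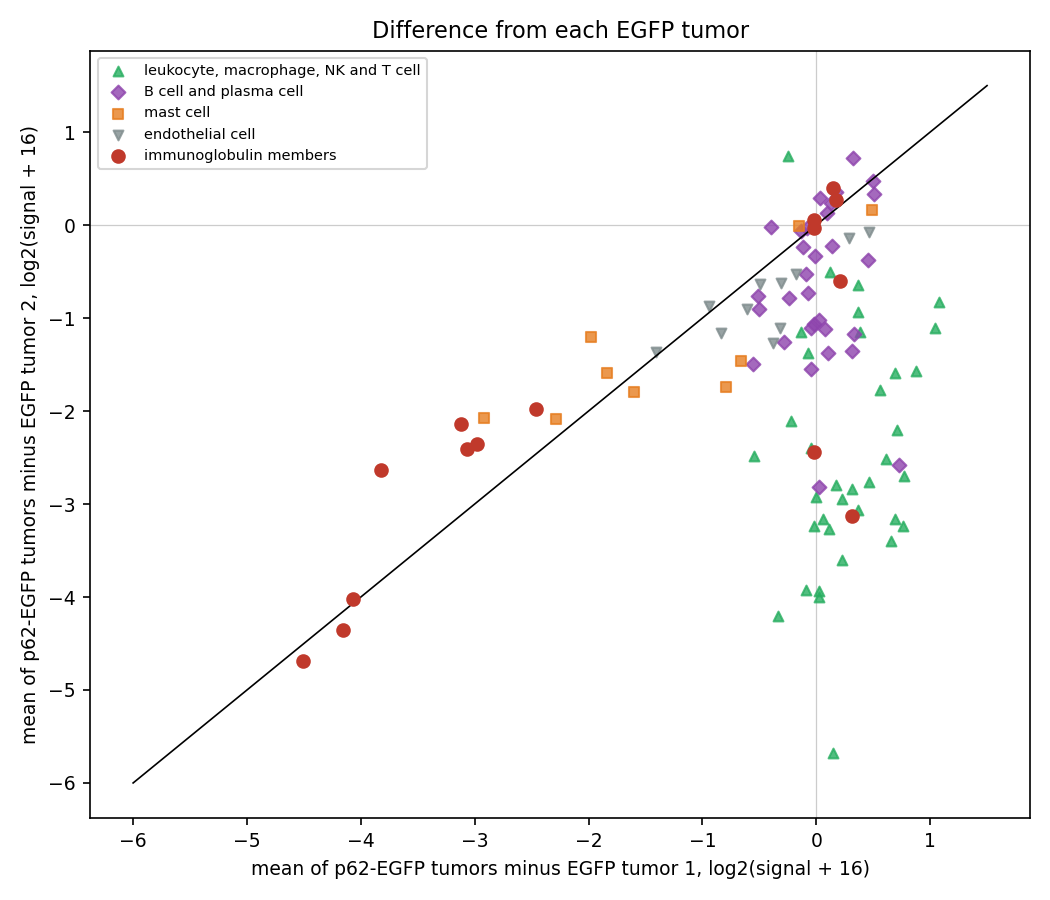
Difference of the mean of the p62-EGFP tumors from EGFP tumor 1 (horizontal) and from EGFP tumor 2 (vertical), in log2(signal + 16), for members and marker genes; the line marks equal differences. The 8 members high in both EGFP tumors lie between -4.51 and -2.46 against EGFP tumor 1, with several mast cell genes nearest to them. Leukocyte, macrophage, NK and T cell genes lie between -0.55 (Cd4) and 1.08 (Lyz1) against EGFP tumor 1. Against EGFP tumor 2 all of these but Zap70 (0.74) are negative. The 2 Ighm probe sets high in EGFP tumor 2 alone lie at -0.02 and 0.31 against EGFP tumor 1.

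Signals that draw B cells or keep them alive were mostly dim, and 2 of 11 measured genes were tested. Cxcl12, a chemokine that retains B cell precursors and plasma cells in bone marrow, read 273.8 and 213.9 in the p62-EGFP tumors and 800.6 and 449.6 in the EGFP tumors. Its groups were apart in the same direction as those of the kappa transcripts, but the difference of -1.26 on the log2 scale did not pass (limma adjusted p = 0.221). Its receptor gene Cxcr4 read 100.3 and 133.5 in the p62-EGFP tumors and 131.0 and 225.1 in the EGFP tumors, which overlapped (limma adjusted p = 0.457). Tnfsf13b, the B cell survival factor BAFF, read 12.8 and 18.7 against 15.4 and 67.0, and the B cell chemokine gene Cxcl13 10.7 and 24.0 against 17.5 and 37.1. Both were too dim to be tested and were highest in EGFP tumor 2. Tnfsf13b and Cxcl13 were chosen after their values were seen.

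Receptors and carriers of antibody showed no common direction, and of the 7 tested of 10 measured 0 passed limma after adjustment (0.0884% of all tested did) and 1, Fcgrt, had an unadjusted p below 0.05 (14.5% of all tested). Fcgrt, the neonatal Fc receptor that protects IgG from breakdown, read 102.4 and 105.1 in the p62-EGFP tumors and 275.6 and 162.2 in the EGFP tumors (log2 difference -0.93, limma adjusted p = 0.256). Fcgr2b, the inhibitory IgG receptor, read 99.4 and 125.6 in the p62-EGFP tumors and 69.2 and 91.8 in the EGFP tumors (log2 difference 0.42, limma adjusted p = 0.421). Neither gene overlapped between groups, Fcgrt being lower and Fcgr2b higher in p62-EGFP tumors. Fcgr4, an activating IgG receptor of myeloid cells, read 18.6 and 21.1 in the p62-EGFP tumors and 7.9 and 444.3 in the EGFP tumors (limma adjusted p = 0.606), the order of the leukocyte genes. Trim21, a cytosolic antibody receptor, read 93.1 and 114.0 in the p62-EGFP tumors and 106.0 and 143.9 in the EGFP tumors (limma adjusted p = 0.638). Pigr, which carries polymeric IgM and IgA across epithelia, read 6.5 or less in all 4 tumors.

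For most mast cell and endothelial markers the groups were apart with p62-EGFP lower, though none passed the test, and their part in the immunoglobulin result was not tested. The 9 mast cell genes summed to 214.2 and 142.1 in the p62-EGFP tumors and 749.0 and 647.8 in the EGFP tumors, so both EGFP tumors were high, as for the kappa transcripts. The groups were apart with p62-EGFP lower for 7 of the 9, beside 18.2% of all non-control probe sets, and Kit, the stem cell factor receptor, overlapped between groups at 97.3 and 73.3 in the p62-EGFP tumors and 55.6 and 74.3 in the EGFP tumors. Of the 5 tested, 0 passed limma after adjustment (0.0884% of all tested did) and 4 had an unadjusted p below 0.05 (14.5% of all tested). The lowest was Cpa3, at 15.8 and 10.3 in the p62-EGFP tumors and 125.3 and 107.3 in the EGFP tumors (limma adjusted p = 0.0842). Ms4a2, the beta chain of the IgE receptor of mast cells and basophils, read 6.5 and 2.0 in the p62-EGFP tumors and 6.3 and 4.3 in the EGFP tumors. The protease gene Cma1 read 14.3 and 10.8 in the p62-EGFP tumors and 70.5 and 82.4 in the EGFP tumors (limma adjusted p = 0.131). The 11 endothelial genes summed to 298.9 and 373.3 in the p62-EGFP tumors and 529.8 and 739.8 in the EGFP tumors, with 9 of the 11 apart in the same direction and Flt1 and Tek not (log2 differences 0.20 and 0.08). Of 9 endothelial genes tested, 0 passed limma after adjustment and 4 had an unadjusted p below 0.05, beside the same 0.0884% and 14.5% of all tested. Cldn5, a tight junction protein of endothelium, read 11.8 and 22.5 in the p62-EGFP tumors and 70.8 and 68.8 in the EGFP tumors (limma adjusted p = 0.184).

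**Figure D4:**
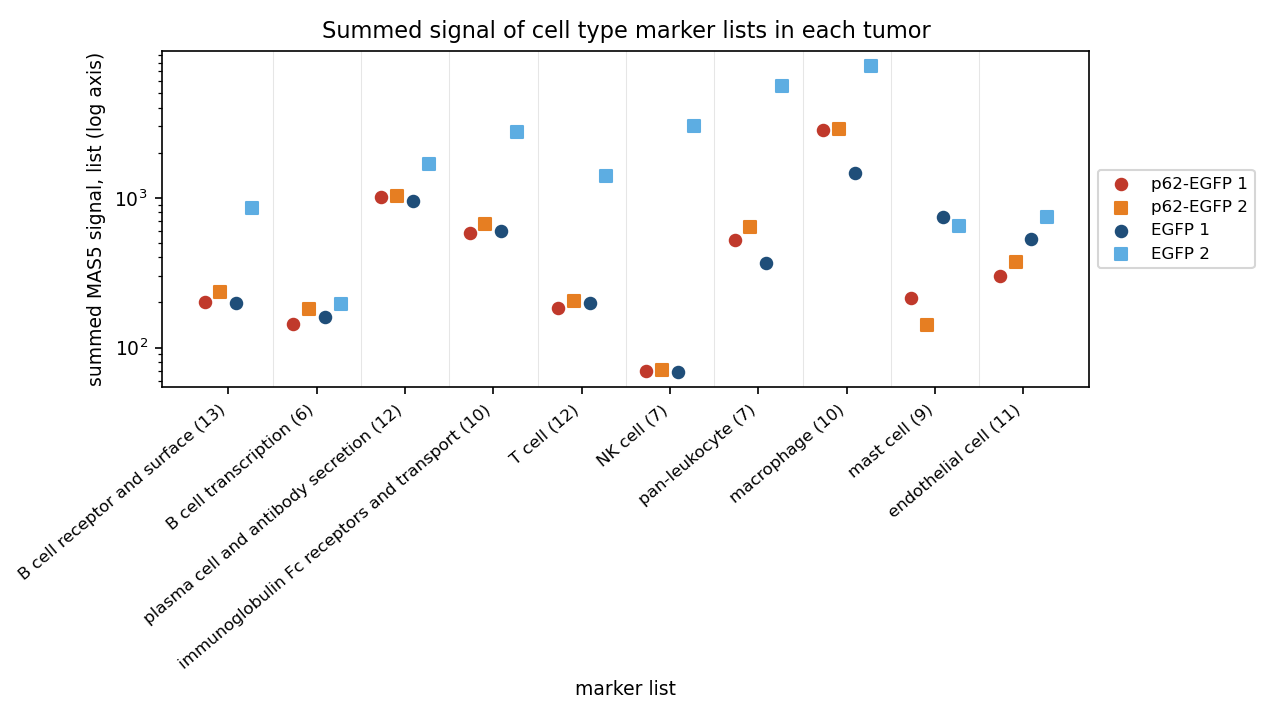
Summed signal (log axis) of each cell type marker list in each tumor, with the number of measured genes in brackets. Pan-leukocyte, macrophage, NK, T and B cell surface lists are highest in EGFP tumor 2, and the macrophage list is lowest in EGFP tumor 1. The mast cell list is high in both EGFP tumors, at 214.2 and 142.1 in p62-EGFP tumors and 749.0 and 647.8 in EGFP tumors.

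The profile of the 3 shared kappa probe sets over the 4 tumors was compared with that of every tested gene outside the immunoglobulin loci. Likeness was measured as the root mean square difference between log2 profiles, each centred on its own mean, over 4 tumors. Within the immunoglobulin genes the nearest probe sets were that of Igkv8-30, at 0.711, and 1427756_x_at of Ighm, at 0.829. The nearest other genes were Egr1, an immediate early transcription factor (0.947), the mast cell protease gene Tpsab1 (0.986), the immediate early gene Fos (1.05) and the mast cell protease gene Cpa3 (1.07). Psmb9, a subunit of the immunoproteasome (1.19), Poglut1, a glycosyltransferase that modifies Notch (1.25), Tap1, the antigen peptide transporter (1.26), and Junb, another immediate early gene (1.27), came next. Of these genes, Tpsab1 read 32.1 and 20.4 in the p62-EGFP tumors and 301.2 and 159.5 in the EGFP tumors, and Poglut1 23.9 and 38.9 against 115.7 and 198.9. Egr1 read 283.2 and 309.7 against 2947.8 and 1278.4, and Fos 100.8 and 116.5 against 2173.5 and 445.8. Neither was nearly equal in the 2 EGFP tumors, as the kappa probe sets were. The log2 differences of the 8 genes ran from -3.01 (Fos) to -1.81 (Junb), all smaller in size than those of the 3 kappa probe sets. The 8 nearest held 0 of the B lineage genes. Only 10 of these were tested and could appear, a small share of all tested genes, so nothing is read from this count. The other 27, Jchain, Cd79a and Cd79b among them, could not appear.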

How the data were processed

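Biotinylated cRNA from total RNA of 4 tumors was measured on Affymetrix Mouse Genome 430A 2.0 arrays, 1 for each tumor, per the labels. The intensities deposited by the authors are linear 1-colour signals. MAS5 is the tool the submitters' processing notes list, with no version. Means trimmed by 2% at each end were 150.04 on every array, so no rescaling was done. Of 22690 probe sets, 64 controls were left out. Genes were named through the supplied array annotation (20380 probe sets with 1 symbol, 691 with several, 1555 with none); a probe set with several symbols is given by its ID. Of the 28 immunoglobulin genes annotated, 27 matched the RefSeq gene table of GRCm38.p6, which was used for names only. No immunoglobulin sequences are printed.

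Signals were transformed as log2(signal + 16). Probe sets with a mean at or above the 40th percentile (log2 value 5.60), 13576 in all, entered a two-sided test of p62-EGFP minus EGFP in limma 3.58.1 (R 4.3.3; lmFit, then eBayes with an intensity trend), with Benjamini-Hochberg adjustment and a threshold of 0.05. The series design text names Genes@Work, which was not used here. The fit was checked on simulated arrays. A listed gene was represented by its single-symbol probe set of highest mean. The genes to be named were up to 4 tested genes of each list with the smallest p, beside immunoglobulin probe sets. Cd79a, Cd79b, Ms4a1, Jchain, Ptprc and the 8 of nearest profile were added to them. Not all are named here: several of the pan-leukocyte, macrophage, NK cell, mast cell and endothelial lists are left out. Members and lists were chosen with earlier results of these data known. Other genes, such as Rag1, Rag2, Pigr, Ms4a2, Kit, Flt1 and Tek, were named after their values were seen. Whether replicate tumors grew in different mice is not stated, so p-values measure only the spread between these tumors, and 4 arrays limit the precision. Tables and figures were made with Python 3.11.15, pandas 2.3.3 and matplotlib 3.10.9. Alternatives covered array scaling, pseudocount, filter, variance trend, a replicate block and leaving out each tumor.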

Additional observations from a re-analysis of the deposited data

How the results depend on the processing

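The median log2 difference of the 15 immunoglobulin probe sets, -2.22, was -1.25 with a pseudocount of 64 and between -2.53 and -2.18 with the other scalings, filters, variance model, block and pseudocount; without 1 tumor it ranged from -2.46 to -2.14. Calls over all probe sets, 12 in the main setting, numbered 6 with no filter, 7 with a filter at the 60th percentile and 37 with the replicate block; without 1 tumor they ranged from 0 to 2835. B lineage genes called numbered 0 in every setting that kept all tumors and 0 to 6 without 1 tumor, the 6 being without EGFP tumor 1. Other immunoglobulin probe sets called numbered 0 in all settings, and could be tested in the setting without a filter alone. With the replicate block Cpa3 and Tpsab1 passed (limma adjusted p = 0.0381 and 0.0227). The labels do not say whether same-numbered tumors were paired. Deviations of same-numbered tumors from their group means correlated at 0.0823 across tested probe sets. That 1 value, from so few tumors, cannot decide whether they were paired. A dim signal bounds what can be said of Jchain, Cd79a, Cd79b, Ms4a1 and the 40 further immunoglobulin probe sets.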

Other observations

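Most transcripts that mark T cells were high in 1 of the 4 tumors only, although the host mice were nude. Of 12 T cell genes measured, 11 were highest in EGFP tumor 2 and 10 read under 20 in each of the other 3 tumors. The remaining 2, Zap70 and Thy1, were the only ones tested and had signal in all 4 tumors. Zap70 read 100.7 and 91.5 in the p62-EGFP tumors and 116.8 and 50.9 in the EGFP tumors, so it was lowest in EGFP tumor 2. Thy1 read 41.7 and 57.8 against 24.5 and 180.3, and neither gene passed (limma adjusted p = 0.758 and 0.794). Cd3d, a chain of the T cell receptor complex, read 0.6 and 6.6 in the p62-EGFP tumors and 0.5 and 218.6 in the EGFP tumors, and Cd3g, another chain, 5.4 and 8.9 against 7.4 and 202.6. The co-receptor gene Cd8a read 9.2 and 6.1 in the p62-EGFP tumors and 5.0 and 148.3 in the EGFP tumors, Cd8b1 6.1 and 7.7 against 3.5 and 161.3, and Cd4 3.2 and 3.0 against 11.9 and 90.4. None of Cd3d, Cd3g, Cd8a, Cd8b1 and Cd4 passed the filter on low values over the 4 arrays, so these 5 genes were left out of the test. They were named after their values were seen.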
